A study of Rattus norvegicus with 2 samples.

Results

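The sodium, calcium and TRP channel genes are the 74 genes, of 17049 in the deposited expression table, whose symbols name a subunit of these cation channel families. They were chosen by a rule on the symbol that uses no expression value. Earlier results of these data were known when the rule was set. They hold voltage-gated sodium channel subunits (Scn), the epithelial sodium channel (Scnn1), acid-sensing channels (Asic), and voltage-gated calcium channel subunits (Cacna, Cacnb, Cacng). TRP channels (Trpc, Trpm, Trpv), Piezo channels, store-operated entry genes (Stim, Orai) and intracellular release channels (Ryr, Itpr1, Itpr3) complete them. The symbol rule also took Trpc4ap and Trpc5os, a TRPC4-associated protein and an opposite-strand transcript of Trpc5, which are not channels.

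Voltage-gated sodium and calcium channels open when the membrane depolarizes. A large alpha subunit forms the pore, and beta, alpha2delta and gamma subunits set its trafficking and gating. TRP and Piezo channels respond to lipids, heat, second messengers or membrane stretch, while STIM proteins sense the calcium store of the endoplasmic reticulum and open ORAI channels. Oligodendrocyte precursor cells (OPCs), the dividing glia that give rise to myelinating oligodendrocytes, are known to carry voltage-gated channels and to receive synaptic input from neurons.

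The study sequenced mRNA of primary OPCs from the brain of adult wild-type (WT) rats, grown in OGM medium at 37 °C with 5% CO2. One group was labelled as treated with Aβ, the amyloid peptide of Alzheimer's plaques (1 µM for 2 days), and the other with DMSO, a solvent. Because the protocol text mentions Aβ for both samples, the control was identified by its treatment label alone. Each group had 1 library, and the sources used here do not give the number of animals or cultures behind it or the form of the peptide. No difference below therefore has a replicate check, and no p-value was computed here.

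The libraries held 15704932 (Aβ) and 15663751 (control) estimated reads. A gene was counted as measured where it reached 1 TPM, a length-corrected measure of transcript abundance, in either library or in both. Each read ratio divides the gene's share of the Aβ reads by its share of the control reads. Its exact 95% interval (Clopper-Pearson) covers counting error only and compares the 2 libraries, not the conditions. OPC markers were present but uneven. Olig1 stood at 1420.5 TPM (Aβ) and 1557 TPM (control) and Pdgfra at 23.2 and 24.6 TPM, while the lineage factor Sox10 had 22 and 33 reads. The 7 astrocyte markers summed to 2122 and 2161 TPM, among them Gfap at 328 and 368 TPM, and the 7 microglial markers to 129 and 143 TPM. The 8 neuron markers, the type best known for these channels, summed to 32.3 TPM (Aβ) and 27.3 TPM (control). Of 6 measured neuron markers the read interval lay above 1 for 2 (Snap25 and Rbfox3) and below 1 for 2 (Syt1 and Gad1), and Nefl had 1 and 0 reads. Of all measured genes, 12% had an interval above 1 and 12.5% below. The part of other cell types in the channel values was not tested, and in bulk RNA fewer cells of a type and less RNA per cell cannot be told apart.

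Of the 74 genes, 37 were measured and 37 were not. The measured ones lay close to equal between the libraries. None of the 37 was 2-fold higher or 2-fold lower with Aβ on the log2(TPM + 1) scale, a scale that understates the difference of low genes. Of all 12980 measured genes, 0.501% were 2-fold higher and 0.493% were 2-fold lower. By read ratio 35 of the 37 lay within 1.5-fold, and the exceptions were Cacng6 and Trpm3. The median log2 ratio of the 37 was 0.03, with a range from -0.32 to 0.75, and that of all measured genes was 0.01. The read interval lay above 1 for 5 members (13.5%), beside 12% of all measured genes. It lay below 1 for 6 (16.2%), beside 12.5% of all. Both shares are near the background. Among the 28 members with 200 or more reads over both libraries, 4 lay above 1 and 4 below, where 13.1% and 13.7% of all such genes did.

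**Figure D1:**
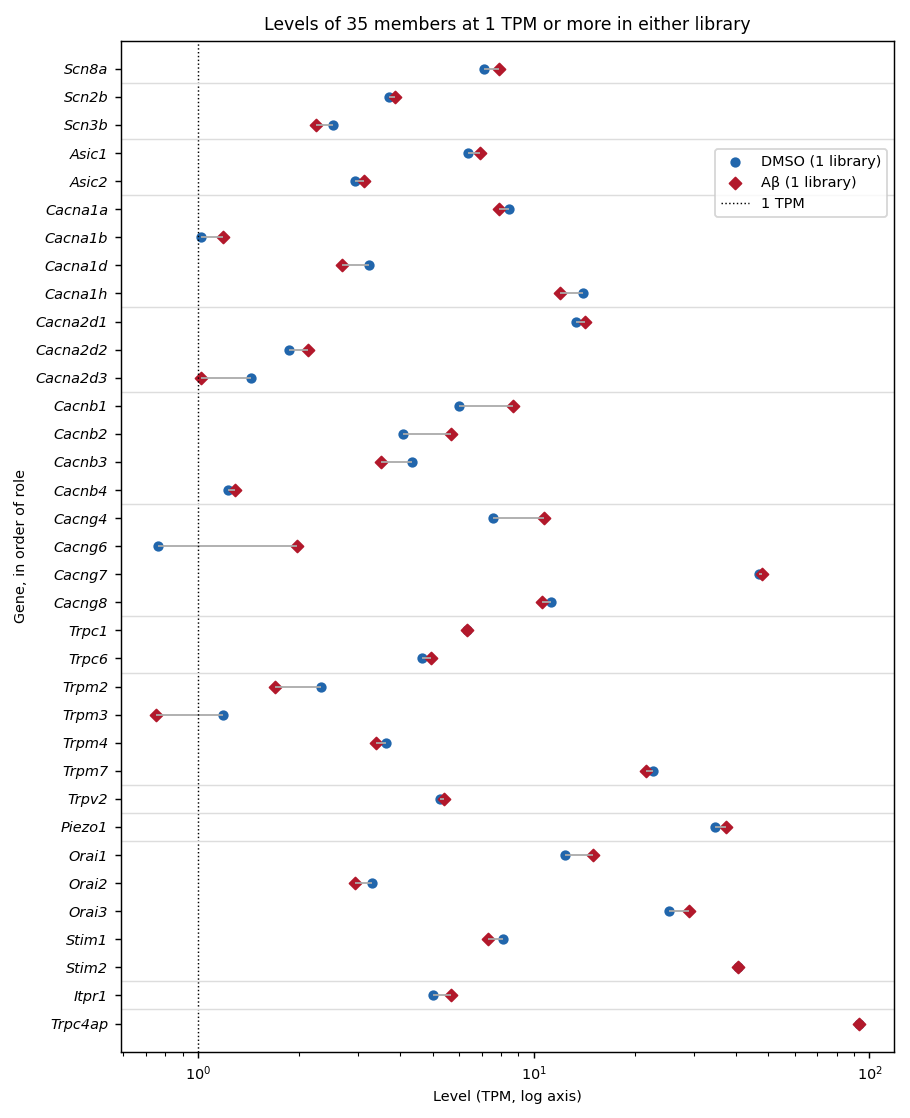
Level in TPM (log axis) of 35 of the 37 measured genes, in order of role, with 1 point per library (DMSO circles, Aβ diamonds) and a dotted line at 1 TPM. Trpc4ap and Cacng7 stand highest of those plotted, and the widest gaps are those of Cacng6 and Trpm3, the genes that cross 1 TPM.

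By level per length, 11 of the 74 genes were at 10 TPM or more in both libraries. Trpc4ap, not a channel, was at 93.0 and 93.2 TPM on 2759 and 2779 reads (0.99, 0.939 to 1.04). Cacng7 (47.7 and 47.0 TPM), Stim2 (40.6 and 40.5 TPM) and Piezo1 (37.3 and 34.6 TPM) were the next of the genes given here in both libraries. With no replicates, neighbours in this order cannot be separated from the spread between cultures.

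Among sodium channel pore genes, Scn8a, the pore best known from nodes of Ranvier, was at 7.90 and 7.13 TPM, with 506 and 460 reads (1.10, 0.965 to 1.25). The interval included 1. Scn4a, the skeletal muscle pore, was at 0.30 and 0.56 TPM with 21 and 39 reads (0.537, 0.300 to 0.936). The neuronal pores Scn1a (29 and 39 reads) and Scn2a (31 and 34 reads) and the atypical Scn7a (12 reads in each) were also under 1 TPM.

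The sodium channel beta subunits partner the pores and also act in cell adhesion. Scn2b was at 3.86 and 3.72 TPM on 101 and 108 reads (0.933, 0.704 to 1.23), so its TPM was higher with Aβ while its reads were fewer. Scn3b had 83 and 94 reads, and Scn4b, under 1 TPM, had 39 and 35.

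Proton-gated and epithelial sodium channels showed no difference beyond counting error. Asic1, the main acid-sensing channel of brain, was at 6.91 and 6.37 TPM on 269 and 245 reads (1.10, 0.918 to 1.31). Asic2 was at 3.13 and 2.94 TPM on 61 and 57 reads (1.07, 0.732 to 1.56). Asic3, known from sensory neurons, was at 0.44 and 0.77 TPM with 12 and 21 reads (0.570, 0.256 to 1.21). Asic4 had 15 and 11 reads and Scnn1a, the alpha subunit of the epithelial channel, 21 and 30.

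**Figure D2:**
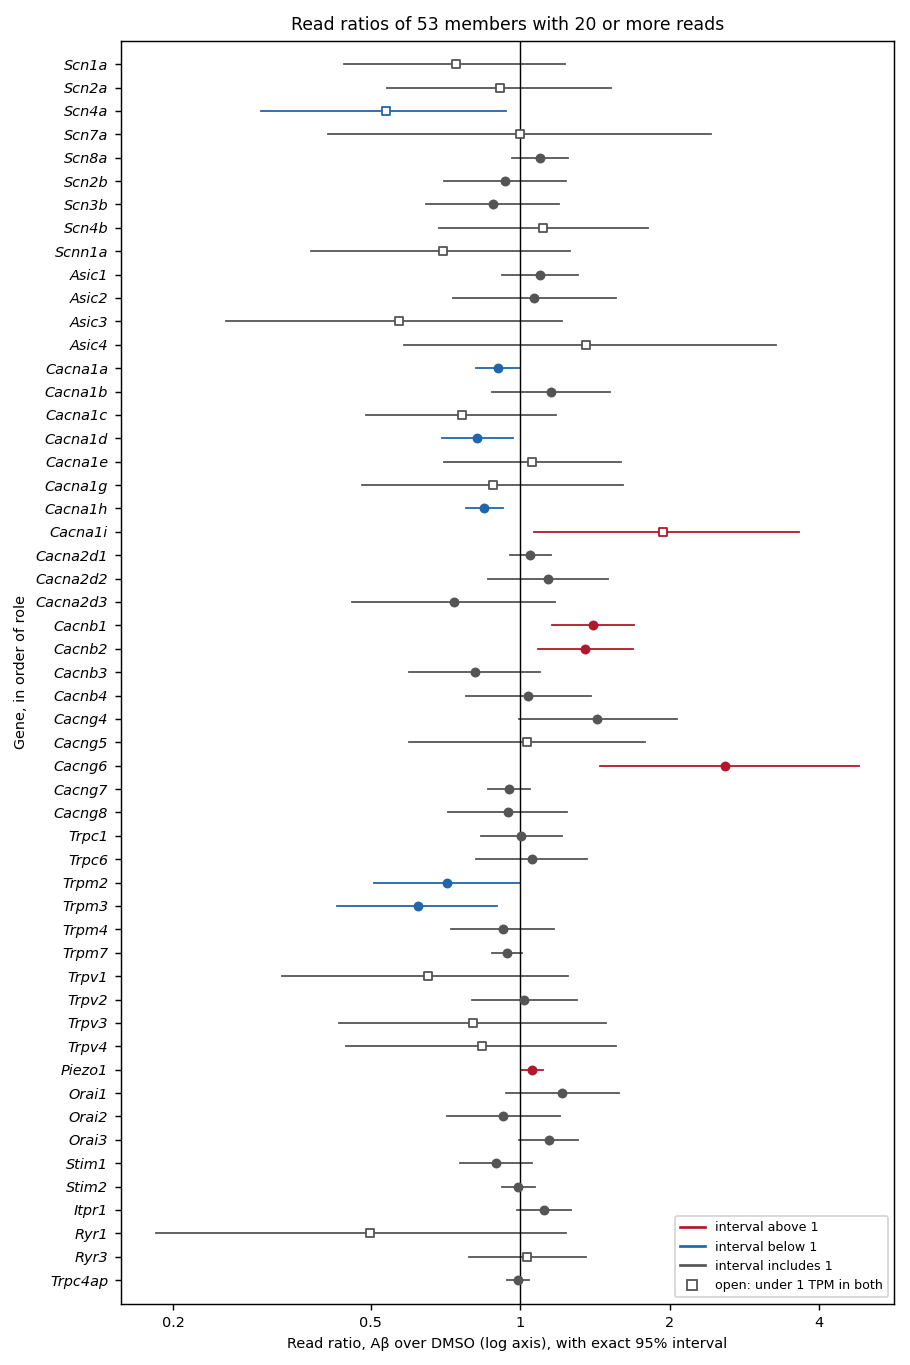
Read ratio of Aβ over DMSO (log axis) for 53 of the 56 genes with 20 or more reads over both libraries, each with its exact 95% interval for counting error. Colour marks intervals above 1 (red), below 1 (blue) or across 1 (grey), and open squares are genes under 1 TPM in both libraries. Calcium channel pores Cacna1a, Cacna1d and Cacna1h lie below 1. The pore Cacna1i, under 1 TPM, and the subunits Cacnb1, Cacnb2 and Cacng6 lie above it. The beta subunit Cacnb3, at 0.810, has an interval across 1.

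Voltage-gated calcium channel pore genes were lower with Aβ for 3 of the 4 measured. Cacna1h, a T-type pore opened by small depolarizations, was the leading one at 12 TPM (Aβ) and 14.0 TPM (control). Its 958 and 1127 reads gave a ratio of 0.848 (0.777 to 0.925). Cacna1d, an L-type pore, was at 2.68 and 3.23 TPM on 268 and 326 reads (0.820, 0.695 to 0.967). Cacna1a, the P/Q-type pore of presynaptic terminals, was at 7.86 and 8.43 TPM on 723 and 799 reads (0.903, 0.815 to 0.999). That interval touched 1, and it included 1 when reads were scaled by median-ratio size factors. The N-type pore Cacna1b went the other way within counting error, at 1.19 and 1.02 TPM on 118 and 102 reads (1.15, 0.878 to 1.52).

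The reads of all 9 calcium channel pore genes in the table summed to 2216 with Aβ and 2502 in the control, a ratio of 0.883 (0.834 to 0.936). Most of that sum belonged to Cacna1h and Cacna1a, and summed reads weigh long and abundant genes most. Among the pores under 1 TPM, the T-type Cacna1i was at 0.52 and 0.27 TPM, on 35 and 18 reads (1.94, 1.07 to 3.64). Cacna1c, the L-type pore of heart and many neurons, had 39 and 51 reads, the R-type pore Cacna1e 52 and 49, and the T-type Cacna1g 23 and 26.

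The intracellular beta subunits, which bring the pores to the membrane, were all 4 measured, and they did not share a direction. Cacnb1 was higher with Aβ, at 8.66 TPM against 6.01 TPM, on 274 and 195 reads (1.40, 1.16 to 1.69). Cacnb2 was at 5.69 and 4.08 TPM on 198 and 146 reads (1.35, 1.09 to 1.69). Cacnb3 lay on the other side of equality, with 82 and 101 reads (0.810, 0.598 to 1.09), and Cacnb4 had 100 and 96. Cacnb1 made up 45.2% of the summed beta subunit TPM with Aβ and 38.4% in the control, and Cacnb3 18.3% and 27.8%. The 4 genes together had 654 and 538 reads, a ratio of 1.21 (1.08 to 1.36). The same sum gave intervals that included 1 for the alpha2delta family (1.04, 0.958 to 1.14) and the gamma family (1.00, 0.921 to 1.09).

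Among alpha2delta subunits, extracellular partners of the pores, none differed beyond counting error. Cacna2d1 was at 14.2 and 13.4 TPM on 921 and 876 reads (1.05, 0.955 to 1.15). It held 81.7% of the family's summed TPM with Aβ and 80.1% in the control. Cacna2d2 was at 2.13 and 1.87 TPM on 113 and 99 reads (1.14, 0.861 to 1.51), and Cacna2d3 had 34 and 46 reads.

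The gamma family mixes calcium channel subunits with the TARPs, proteins that traffic and gate AMPA-type glutamate receptors. Among its measured members the widest read ratio was that of Cacng6, a calcium channel gamma subunit. Cacng6 was at 1.97 TPM (Aβ) and 0.76 TPM (control), on 44 and 17 reads (2.58, 1.45 to 4.82). It was measured through the Aβ library alone, so its place among the measured genes depends on its being high there. The TARP gene Cacng4, a known OPC transcript, was at 10.8 and 7.57 TPM on 76 and 53 reads (1.43, 0.994 to 2.07). Cacng7, another TARP and the family's most abundant member, was at 47.7 and 47.0 TPM, yet on 812 and 852 reads (0.951, 0.862 to 1.05). Cacng8 was at 10.6 and 11.2 TPM on 106 and 112 reads (0.944, 0.717 to 1.24). Cacng5 was under 1 TPM with 30 and 29 reads.

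**Figure D3:**
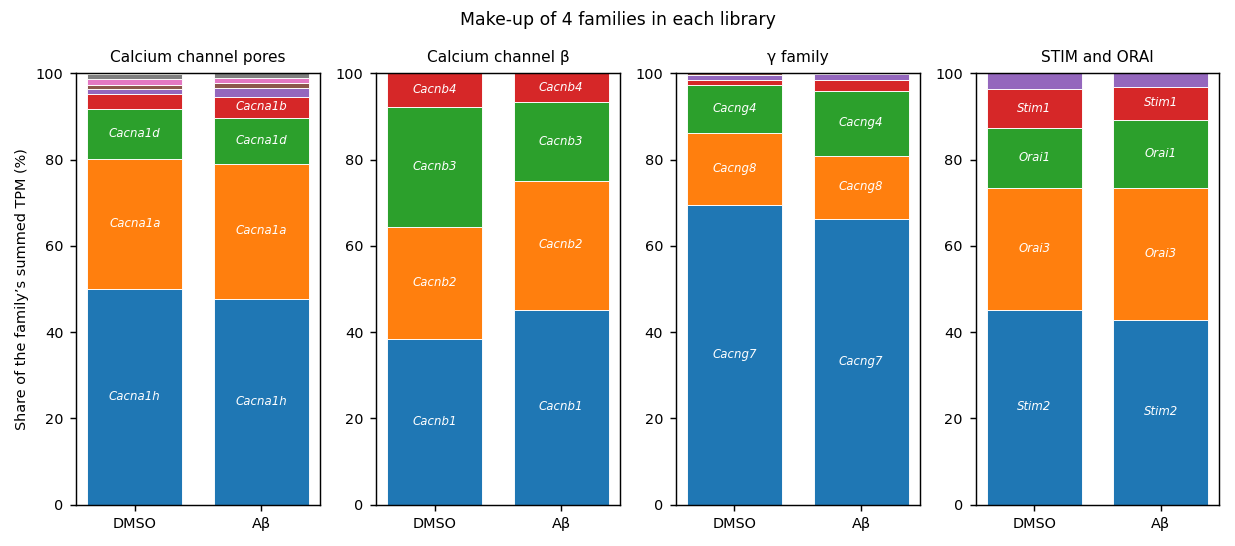
Share of each gene in the summed TPM of its family (percent, bars stacked to 100), for calcium channel pores, beta subunits, the gamma family and the STIM and ORAI genes, with 1 bar per library. In the beta panel Cacnb1 takes 38.4% in the DMSO library and 45.2% in the Aβ library, while Cacng7 and Stim2 lead their families in both.

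Sequence upstream of the transcription start, from RefSeq on build GRCr8, was found by gene number for 55 of the 74 genes. The authors' alignment used another build, Rnor_6.0, so no coordinate below was read against their data. Shown are a beta subunit and a gamma subunit with more reads in the Aβ library (for Cacnb2, the first of its entries) and a pore gene with fewer. Each runs 5′ to 3′ on the gene's strand from 250 bases before to 50 bases after the start, and capitals mark the GC box letters GGGCGG on either strand, overlapping matches merged.
Cacnb2 (GRCr8 chr17:82472965-82473264, + strand): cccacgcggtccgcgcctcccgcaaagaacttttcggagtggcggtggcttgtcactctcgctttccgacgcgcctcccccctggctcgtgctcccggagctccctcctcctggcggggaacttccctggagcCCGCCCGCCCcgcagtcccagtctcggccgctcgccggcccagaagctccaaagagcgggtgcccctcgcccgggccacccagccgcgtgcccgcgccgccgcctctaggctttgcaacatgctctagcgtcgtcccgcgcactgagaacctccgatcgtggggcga
Cacng6 (GRCr8 chr1:74662704-74663003, - strand): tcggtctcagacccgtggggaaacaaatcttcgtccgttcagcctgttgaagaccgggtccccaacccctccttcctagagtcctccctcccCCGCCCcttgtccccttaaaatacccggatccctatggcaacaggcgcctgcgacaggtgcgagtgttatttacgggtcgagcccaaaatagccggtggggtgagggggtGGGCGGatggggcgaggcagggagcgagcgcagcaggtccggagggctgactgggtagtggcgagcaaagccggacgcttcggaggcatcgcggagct
Cacna1d (GRCr8 chr16:5527500-5527799, - strand): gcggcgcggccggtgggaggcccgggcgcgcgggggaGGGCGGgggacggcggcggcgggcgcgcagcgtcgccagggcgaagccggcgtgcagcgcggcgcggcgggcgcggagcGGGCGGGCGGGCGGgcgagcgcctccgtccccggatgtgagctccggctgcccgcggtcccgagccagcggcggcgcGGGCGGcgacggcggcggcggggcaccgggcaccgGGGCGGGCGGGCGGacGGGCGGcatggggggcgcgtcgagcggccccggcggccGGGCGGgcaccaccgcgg
The GC box letters were present 10 times in the Cacna1d window and 2 times each in those of Cacnb2 and Cacng6. Of the 55 windows, each the first entry of its gene, 47.3% held them at least once, beside 33.1% of 33469 windows in all. The full set can hold several windows of the same gene, so these and the following shares compare unlike sets. The cAMP response element TGACGTCA was in 0 of the 55 (1.83% of all windows) and the AP-1 letters TGAGTCA in 1, that of Trpv3 (4.63% of all). TATAAA was in 7.27% of the 55 and 14.2% of all, and the E-box CACGTG in 5.45% and 6.42%. All letters were sought on both strands, and a match describes the sequence and is not a site.

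By TPM, each of the 4 measured TRPM genes was lower with Aβ. For 2 of them (Trpm3 and Trpm2) the read interval lay below 1, as it did for 12.5% of all measured genes. Trpm3, a heat and steroid gated channel, was at 0.75 TPM (Aβ) and 1.19 TPM (control), on 50 and 80 reads (0.623, 0.429 to 0.899). It was measured through the control library alone, so its lower TPM with Aβ was set by the 1 TPM filter and adds nothing to the family count. Trpm2, a channel opened by ADP-ribose under oxidative stress and prominent in myeloid cells, was at 1.70 and 2.32 TPM on 63 and 88 reads (0.714, 0.508 to 0.998). Its interval included 1 under median-ratio scaling. Of 6 measured microglial markers in the same libraries, the read interval lay below 1 for 1 (Aif1) and above 1 for 0, no microglial marker was at 0 reads, and their part in the Trpm2 value was not tested. Trpm7, a channel fused to a kinase and known for magnesium balance, led the family at 21.5 and 22.6 TPM on 1521 and 1611 reads (0.942, 0.877 to 1.01). The calcium-activated Trpm4 was at 3.39 and 3.64 TPM on 138 and 149 reads (0.924, 0.727 to 1.17). Trpm1 and Trpm6, both under 1 TPM, had 9 and 8 reads each.

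TRPC and TRPV genes did not differ beyond counting error. Trpc1 was at 6.31 TPM in both libraries, on 227.31 and 224.55 estimated reads (1.01, 0.833 to 1.22), and its values are not whole, so the authors' counting may have divided reads between gene models. Trpc6, gated by diacylglycerol, was at 4.93 and 4.64 TPM on 128 and 121 reads (1.06, 0.816 to 1.36). Trpc4 had 8 reads in each library. Trpv2 was the only measured TRPV gene, at 5.39 and 5.27 TPM on 138 and 135 reads (1.02, 0.798 to 1.30). The capsaicin receptor Trpv1 was at 0.64 and 0.98 TPM with 17 and 26 reads (0.652, 0.332 to 1.25). Trpv3 (21 and 26 reads), the osmotically sensitive Trpv4 (21 and 25) and the calcium-selective Trpv6 (10 and 4) were under 1 TPM as well.

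Piezo1, a stretch-activated channel, was the most deeply counted of the channel genes, with 3159 reads with Aβ and 2977 in the control. Its ratio of 1.06 (1.01 to 1.11) was the closest to 1 of the intervals that excluded it. Its relative Piezo2, the touch channel of sensory neurons, had 9 and 8 reads. Piezo1 was at 37.3 and 34.6 TPM and Piezo2 at 0.09 and 0.07 TPM.

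All 5 store-operated entry genes were measured, and every read interval among them included 1. Stim2, the sensor tuned to small losses from the store, was at 40.6 and 40.5 TPM on 1334 and 1341 reads (0.992, 0.919 to 1.07). Stim1 was at 7.29 and 8.08 TPM on 269 and 300 reads (0.894, 0.756 to 1.06). Among the pores, Orai3 was at 29.0 and 25.3 TPM on 460 and 402 reads (1.14, 0.996 to 1.31). Orai1 had 133 and 109 reads (1.22, 0.938 to 1.58) and Orai2 115 and 124. Thus Stim2 stood above Stim1, and Orai3 above Orai1 and Orai2, per length in both libraries.

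Of the intracellular release channels, Itpr1 alone was measured, at 5.66 and 5.02 TPM on 551 and 492 reads (1.12, 0.987 to 1.26). This IP3 receptor releases calcium from the endoplasmic reticulum after phospholipase C is activated. Itpr3 had 6 and 8 reads. The ryanodine receptor Ryr3 was under 1 TPM with 113 and 109 reads, and Ryr1, the skeletal muscle form, was at 0.06 and 0.12 TPM on 8 and 16 reads (0.499, 0.185 to 1.23). A further IP3 receptor that the symbol rule does not take, Itpr2, was at 19.3 and 22.6 TPM on 2092 and 2475 reads (0.843, 0.795 to 0.894).

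**Figure D4:**
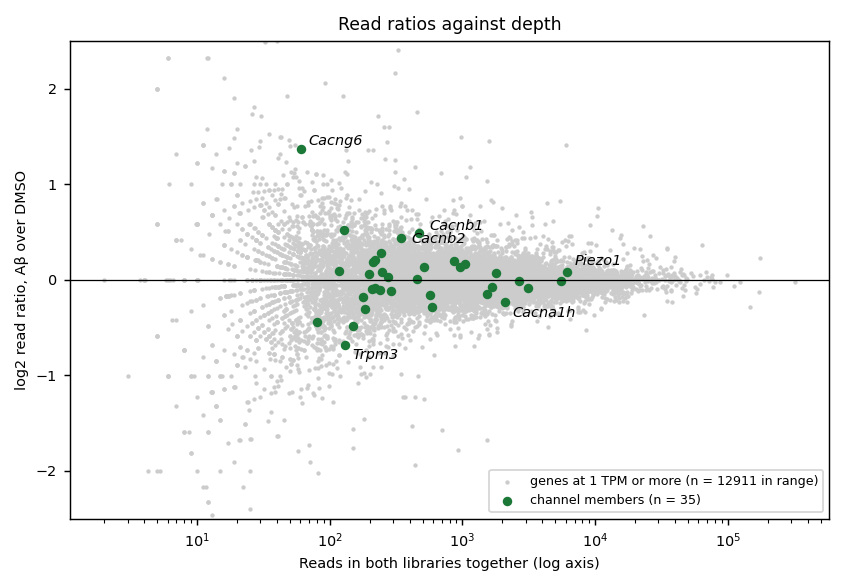
Log2 read ratio of Aβ over DMSO against the reads of both libraries together (log axis) for 35 of the 37 measured channel genes (green) and the 12911 measured genes with reads in both libraries that lie within the plotted range (grey). The channel genes overlap the grey points, and Cacng6 and Trpm3 stand farthest from 0 among them.

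Among the 37 genes that were not measured, 25 had 10 or more reads over both libraries and 12 had fewer. Of the 25, the read interval lay above 1 for 1 (Cacna1i) and below 1 for 1 (Scn4a). Both calls were lost with 99% intervals, and the share among all unmeasured genes was not computed. The 12 with fewer reads were Scn3a, Scn9a, Cacna1s, Cacna2d4, Cacng1, Cacng2, Trpc2, Trpc5, Trpc5os, Trpm5, Trpm8 and Ryr2. Of these, 4 had 0 reads with Aβ and 2 had 0 reads in the control. Since 0 reads in a library are compatible with up to 3, the limit of detection was 0.191 CPM (counts scaled to the library total) for Aβ and 0.192 CPM for the control. The strand setting of the counting is not given, so reads of Trpc5 and Trpc5os cannot be told apart.

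Genes that regulate these channels and handle calcium downstream were taken from a list of 79 symbols, of which 78 were found and 63 measured. The list was written with earlier results of these data known, so its shares are a description and not independent evidence. The read interval lay above 1 for 19 of the 63 (30.2%) and below 1 for 5 (7.94%), beside 12% and 12.5% of all measured genes. These genes were counted more deeply than most, with a median of 1283 reads over both libraries against 1002 for all measured genes. Among all measured genes with 200 or more reads, 13.1% lay above 1 and 13.7% below. The median log2 ratio of the list genes was 0.07, and 0 of the 63 were 2-fold apart.

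The RGK proteins are small GTPases that bind calcium channel beta subunits and inhibit the channels. Of the 4 on the list, 3 had read intervals above 1, beside 12% of all measured genes. With so few genes, from a list written with earlier results known, that count is a description only. Rem2 had 36 reads with Aβ and 17 in the control (2.11, 1.16 to 4.01). Rrad had 46 and 28 reads (1.64, 1.003 to 2.72), with a lower limit that all but touched 1. Gem, the most abundant, was at 47.6 and 31.5 TPM on 748 and 496 reads (1.5, 1.34 to 1.69). Rem1, the other RGK gene listed, was not measured, with 0 and 2 reads. Stac2, an adaptor that favours calcium channel function at the membrane, was at 25.9 and 18.4 TPM on 749 and 534 reads (1.40, 1.25 to 1.57).

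Other genes of the list also had intervals clear of 1. The endoplasmic reticulum calcium pump Atp2a3 was at 31.6 and 21.9 TPM on 1399 and 970 reads (1.44, 1.32 to 1.56). The calcineurin-regulated transcription factor Nfatc2 was at 8.05 and 5.59 TPM on 458 and 310 reads (1.47, 1.27 to 1.71). Fgf12, an intracellular modulator of sodium channels, had 365 and 295 reads (1.23, 1.06 to 1.44), and Mcu, the pore of the mitochondrial calcium uniporter, 623 and 533 (1.17, 1.04 to 1.31). Camk2b, a calcium-calmodulin kinase subunit, had 5591 and 4864 reads (1.15, 1.10 to 1.19). Nalcn, the sodium leak channel, lay below 1 at 2.66 and 3.70 TPM on 182 and 255 reads (0.712, 0.585 to 0.864). The endolysosomal channel Tpcn1 lay below 1 as well, with 1274 and 1490 reads (0.853, 0.791 to 0.920).

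In the authors' deposited table of gene ontology terms among genes higher with Aβ, Cacnb1 and Cacng6 were listed, in 2 of the 282 terms. Both appeared in the authors' deposited table under regulation of monoatomic ion transport and under regulation of transmembrane transport. For the former the authors' deposited table gives a fold enrichment of 1.93 with an adjusted p of 0.0293 over a list of 391 genes, and for the latter 1.85 with 0.0464. The rule that chose those 391 genes was not stated in the sources used here, and both genes are also among those with a read interval above 1 here, from the same libraries. The NCBI gene numbers in the table are 50688 for Cacnb1, 140727 for Cacng6, 116600 for Cacnb2, 361430 for Piezo1, 114862 for Cacna1h, 29716 for Cacna1d, 25398 for Cacna1a, 294329 for Trpm2 and 309407 for Trpm3.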

How the data were processed

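The 2 libraries, 1 per group, were grouped by their treatment labels. Per the submitters' processing notes, the authors used Bowtie2 and the build Rnor_6.0, while the sources used here do not state a version, a counting tool or an annotation. Per the file headers, the authors deposited estimated counts of reads, TPM and FPKM per gene. A further deposited column pair, named normalized read count by the authors, holds the read counts rounded up, was entered as a score and was left out. The authors' deposited ontology table gives fold enrichment as a ratio, with p-value, adjusted p-value and counts of genes.

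Members were taken by symbol, and members and lists were chosen with earlier results of these data known. All 74 gene numbers were found in a RefSeq table of build GRCr8 with the same symbol. The log2 ratio used TPM with a pseudocount of 1. Estimated reads were rounded to whole numbers for the intervals (Python 3.11.15, scipy 1.17.1). The intervals were checked on simulated counts that held counting error only, so the check does not cover the spread between cultures. TMM factors came from edgeR 4.0.16 and median-ratio factors from DESeq2 1.42.0, used for scaling only.

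Measured members are named, as are unmeasured members with 10 or more reads, except that some members are counted but not reported here. Full values go to those with an interval excluding 1, those 1.5-fold apart by read ratio on 20 or more reads, and the 2 most abundant in each role, and some further measured members, such as Cacna1b, Cacng4 and Stim1, also have theirs. Of the measured calcium list genes with a read interval excluding 1, the 12 farthest from a ratio of 1 are named. Among list genes not measured, Casq2 (2 reads with Aβ and 11 in the control) and Ank3 (30 and 50 reads) had intervals below 1. Scn3a and the other members under 10 reads, and Rem1, Casq2 and Ank3, are named outside these rules, after their values were seen. Cell type marker lists covered OPCs, oligodendrocytes, astrocytes, microglia, neurons, endothelium, pericytes, fibroblasts and Schwann cells.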

Additional observations from a re-analysis of the deposited data

How the results depend on the processing

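No paired analysis was possible because each group has 1 library, and for the same reason no library could be left out. With a pseudocount of 0.1 TPM, 1 member (Cacng6) was 2-fold higher in place of 0. The number of members with a read interval below 1, 6 as reported, was 2 among genes at 5 TPM or more and 2 with 99% intervals. The calcium list count above 1, 19 as reported, was 11 with 99% intervals. Of 33 read ratios followed, 7 calls were lost with 99% intervals (Cacna1a, Cacna1d, Cacna1i, Piezo1, Scn4a, Trpm2 and Trpm3), 2 with median-ratio scaling (Cacna1a and Trpm2) and 0 with TMM scaling, and none of these alternatives turned a called ratio to the other side of 1. The cause of the lost calls is the wider interval or, for median-ratio scaling, the small shift in scale. The other alternatives run (CPM in place of TPM, no filter on low values, whole reads only) and leaving out Trpc4ap and Trpc5os, chosen after seeing the data, kept the member counts within 1.5 times and the median within its interval over genes. Depth limits the low members, since 12 of 74 had under 10 reads.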

Other observations

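The remaining marker lists, measured in the same libraries, add these values. The 7 oligodendrocyte markers summed to 211 TPM (Aβ) and 223 TPM (control), and of 6 measured, 2 (Cnp and Myrf) had a read interval below 1 and 0 had one above it. The 8 OPC markers summed to 2661 and 2871 TPM, with 2 of 7 measured above 1 (C1ql1 and Cspg4) and 4 below (Olig1, Olig2, Ptprz1 and Pdgfra). Astrocyte markers had 2 of 7 above (Slc1a3 and Gja1) and 4 below (Gfap, Aqp4, Aldh1l1 and S100b). Of all measured genes, 12% lay above 1 and 12.5% below. Some of these markers were counted very deeply, so small differences were called, such as Slc1a3 at a ratio of 1.02 on 37981 and 37250 reads. Of the endothelial, pericyte, fibroblast and Schwann lists the sums were 4.58 and 4.39, 1.07 and 1.24, 1.89 and 3.02, and 12.9 and 16.6 TPM.

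For a few channel genes the TPM ratio and the read ratio were not the same. For Scn2b the TPM ratio was 1.04 and the read ratio 0.933, and for Cacng7 they were 1.02 and 0.951. The estimated gene length that the authors' TPM carries thus differed between the libraries for these genes. For Cacnb1 (1.44 and 1.40) and Cacnb2 (1.39 and 1.35) both ratios lay above 1, and for Cacna1h (0.855 and 0.848) both lay below it.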
